A study of Homo sapiens with 48 samples.

Results

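The genes described here encode the proteins of the small (40S) subunit of the cytosolic ribosome. They were chosen by symbol: every gene whose symbol starts with RPS and a digit, together with RPSA, without the RPS6 kinases and without the assembly factor RPS19BP1. This gave 34 genes of the 11145 in the table of ribosome-protected fragments (RPFs) and 33 of the 11947 in the table of total cytoplasmic RNA. RPS4Y1 was listed for RPFs alone and enters the counts without values. Of the 34 members, 14 belong to the head of the subunit, 17 to its body and platform, and 3 are paralogs or a readthrough transcript (RPS27L, RPS4Y1 and RPS10-NUDT3).

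The study asked how depletion of subunits of eIF2B alters translation and transcript levels in colorectal cancer. SW480, an established human colorectal adenocarcinoma line, carried a doxycycline (DOX)-inducible shRNA in each of 3 transduced lines: a non-targeting control (shCTRL), shEIF2B1 against the eIF2Bα subunit, or shEIF2B4 against eIF2Bδ. Each line was grown for 5 days with DMSO alone (-DOX) or with 1 µg/ml DOX (+DOX), which gave 6 groups of 4 replicates made in separate weeks. Ribo-seq and RNA sequencing of the same 24 lysates gave 48 libraries, and for replicate 3 the submitters joined the reads of repeated sequencing of the library. The labels name a single shRNA for each knockdown, and each line is its own transduced population, so an effect of 1 shRNA sequence and an effect of losing the subunit cannot be told apart.

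Ribosomal protein mRNAs are the best known 5' TOP mRNAs: they start with a cytosine followed by a run of pyrimidines, and their translation is set by mTORC1 through the RNA-binding protein LARP1. The 40S subunit carries the decoding centre and receives the initiator tRNA from eIF2, whose GTP is renewed by eIF2B. Most small subunit proteins are needed in equal numbers for each subunit, and the mRNAs that encode them are abundant in proliferating cells.

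The deposited values are regularized log2 values, so a difference of 1 is a doubling or a halving of the shrunken estimate, and the depth of the libraries is unknown. In this text a response is the change on DOX in a knockdown line minus the change on DOX in shCTRL, tested with limma over all genes of the table with the week as a block. A gene is called where the two-sided Benjamini-Hochberg adjusted p is under 0.1. These p-values rest on 4 weekly repeats of the same lines. The targeted transcripts fell in the lines labelled for them: the response of EIF2B1 to shEIF2B1 was -0.67 (SE 0.15, adjusted p = 0.0263) in total RNA and -0.53 (SE 0.13, adjusted p = 0.0109) in RPFs, and that of EIF2B4 to shEIF2B4 was -0.49 (SE 0.14, adjusted p = 0.0634) in total RNA. The RPF response of EIF2B4, at -0.48, did not pass the test (SE 0.19, adjusted p = 0.236). Of 9 markers of colorectal epithelium 6 were listed in both tables, between 3.88 and 13.85 in total RNA. Of 9 markers of other cells CD68 alone was listed, between 4.70 and 5.40 in total RNA, within the range of those 6. The median RPF value over all genes was 6.84 to 6.97 in the shEIF2B4 libraries and 6.98 to 7.12 in the others. Bulk libraries cannot tell fewer cells from less RNA per cell.

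The annotated transcription start was searched for the TOP motif, since the mRNAs of ribosomal proteins are described as TOP mRNAs. A start used by these cells at another base would not be seen. The windows below hold 10 bases before and 20 bases from the RefSeq start on the gene's strand (GRCh38.p14), and capitals mark the unbroken C and T run from the start base where that base is C. RPS24, RPS23 and RPS25 are shown for the results that follow, RPS6 as the S6 kinase substrate, RPS27 with its paralog RPS27L, and RPS15 and RPS28 as members without a run. They lie at chr10:78033853-78033882 (+) for RPS24, chr5:82278335-82278364 (-) for RPS23, chr11:119018324-119018353 (-) for RPS25, chr9:19380217-19380246 (-) for RPS6, chr1:153990752-153990781 (+) for RPS27, chr15:63157458-63157487 (-) for RPS27L, chr19:1438386-1438415 (+) for RPS15 and chr19:8321486-8321515 (+) for RPS28.
RPS24: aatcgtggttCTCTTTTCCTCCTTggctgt
RPS23: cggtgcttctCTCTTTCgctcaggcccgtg
RPS25: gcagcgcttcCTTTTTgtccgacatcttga
RPS6: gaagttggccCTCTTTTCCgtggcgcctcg
RPS27: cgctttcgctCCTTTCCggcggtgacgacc
RPS27L: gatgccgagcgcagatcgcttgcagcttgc
RPS15: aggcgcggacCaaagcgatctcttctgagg
RPS28: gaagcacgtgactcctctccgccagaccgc

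A start base C within a run of at least 5 pyrimidines was found for 19 of the 26 members with a RefSeq entry used here (73.1%), with runs of 6 to 14 bases. Over all 35116 promoter entries, counted singly, the same pattern was found for 4.07%. It was found for 30 of 48 large subunit genes (62.5%), counted, like the members, by gene where any entry had it. The 7 members without it were RPS7, RPS15, RPS26, RPS27L, RPS28, RPS29 and RPS4X, and such a match describes the annotated start only. The remaining 8 members, among them RPS2, RPS15A, RPS20 and RPS10-NUDT3, had no entry that was used. Member entries on chromosome 8, where RPS20 lies, had been left out, so its lack of an entry says nothing about RefSeq. The transcript in the deposited tables began within 150 bases of a RefSeq start for 20 of 25 members with both. The RPS27L and RPS25 transcripts were not among them and began upstream of the windows shown. For RPS27 the start of the deposited transcript was not found.

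Levels were compared between members per length, as log2 RPF value per kilobase of coding sequence and log2 total RNA value per kilobase of transcript, in uninduced shCTRL cells. Of the 32 members with a usable length, RPS10, RPS10-NUDT3 and RPS27L lay far from the rest and were set apart. Over the other 29, RPF levels per kilobase were lowest for RPS3A, at 12.13, and reached 14.74 for RPS18. Their median was 13.77 and the SD between genes 0.77. Total RNA levels per kilobase spread more widely, from 11.40 for RPS28 to 15.69 for RPS7, with a median of 14.27 and an SD of 1.18. These 29 members thus lay closer together in footprints per kilobase than in RNA per kilobase. Such levels depend on the annotated transcript that was taken, which for RPS28 was 1326 bases long with a coding sequence of 207. RPS16, a head protein, had an RPF level per kilobase of 14.34 beside a total RNA level of 11.57. Its total RNA before division by length was 11.78 in replicate 3, against 10.20, 10.43 and 10.51 in replicates 1, 2 and 4. RPS24, a body protein mutated in some cases of Diamond-Blackfan anemia, had the reverse order, at 13.19 and 15.64. RPS27L lay below all 29 in both assays, at 9.69 and 10.73 per kilobase, although its coding sequence in the annotation used here is a short 156 bases.

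RPS10 and the readthrough RPS10-NUDT3 share the coding sequence of RPS10, a head protein at the mRNA entry that is ubiquitylated on colliding ribosomes. RPS10 lies at chr6:34417454-34426125 (-) and the readthrough at chr6:34284887-34426071 (-), in GENCODE coordinates on GRCh38. RPS10 held an RPF level of 8.39 per kilobase beside a total RNA level of 14.22 per kilobase, whereas the readthrough held 12.91 and 7.97. Most footprints of this coding sequence were therefore listed under the readthrough and most RNA under RPS10. Reads of the shared sequence cannot be assigned to either, so values for RPS10 alone are uncertain and the sum of both is given beside them.

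Induction of the control shRNA went with lower RPF values across the 40S proteins. In shCTRL cells 22 of the 34 members had lower RPFs on DOX and none had higher RPFs, where 9.85% of all genes were called in either direction and 4.62% were called lower. The median change over the members was -0.42, against 0.01 over all genes, and 32 of 34 lay below 0. Head proteins were called lower in 11 of 14 cases (median -0.49), body and platform proteins in 9 of 17 (median -0.38), and the paralogs and readthrough in 2 of 3. DOX itself and the induced non-targeting shRNA cannot be told apart in this line.

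This call rests on which weeks are kept. Week 1 moved little, with a median change over the members of -0.06, against -0.65, -0.55 and -0.37 in weeks 2, 3 and 4. Without replicate 1, limma called 33 members, 32 of them lower, and 31.6% of all genes. Without replicate 2, 3 or 4 it called 0 members and at most 4 genes of the whole table, while the median change over members stayed at -0.35, -0.38 and -0.43 and at least 21 members had an unadjusted p under 0.05. Without the replicate block 0 members and 0 genes were called, and 23 members had an unadjusted p under 0.05.

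RPS25, a head protein that some viral internal ribosome entry sites need, had the lowest change of all members. Its RPF values in weeks 1 to 4 were 12.66, 12.81, 12.89 and 12.64 in -DOX shCTRL cells and 12.22, 12.01, 11.78 and 12.23 in +DOX cells. All 4 +DOX libraries lay below all 4 -DOX libraries, and the change was -0.69 (SE 0.13, limma adjusted p = 0.0333). Its total RNA values, 13.88, 13.81, 14.33 and 14.00 without DOX and 13.83, 14.15, 14.18 and 13.78 with DOX, overlapped.

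RPS18 and RPS9 followed. RPS18, a head protein at the boundary with the large subunit, had RPF values of 13.40, 13.48, 13.60 and 13.96 in -DOX and 13.27, 12.50, 12.68 and 13.28 in +DOX shCTRL cells, a change of -0.68 (SE 0.14, adjusted p = 0.0399). RPS9, a body protein at the mRNA entry, had 12.36, 12.44, 12.62 and 12.42 without DOX and 12.36, 11.43, 11.56 and 11.83 with DOX, a change of -0.67 (SE 0.15, adjusted p = 0.0454). For RPS9 the week 1 libraries were level while the other 3 weeks fell, as in the weekly medians. RPS27, with a change of -0.60 (SE 0.14, adjusted p = 0.0453), and RPS19, at -0.59 (SE 0.11, adjusted p = 0.0372), completed the 5 lowest.

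At the other end stood 4 members. RPS24 (-0.16, SE 0.13, adjusted p = 0.48), RPS23 (-0.12, SE 0.11, adjusted p = 0.545), RPS10 (0.07, SE 0.12, adjusted p = 0.75) and RPS27L (0.27, SE 0.11, adjusted p = 0.176) did not pass the test. Summed with its readthrough, RPS10 fell by 0.39 (SE 0.11, adjusted p = 0.0716), so its value alone is not that of the shared coding sequence. RPS27L is the p53-inducible paralog of RPS27, and was higher in weeks 1, 2 and 3 and level in week 4, with RPF values of 6.78, 7.08, 6.83 and 7.34 without DOX and 6.86, 7.47, 7.40 and 7.36 with DOX.

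Members with and without an annotated TOP run had like medians. The median RPF change in shCTRL was -0.43 over the 19 members with a run, -0.38 over the 7 without and -0.43 over the 8 with no RefSeq entry used here. RPS15 and RPS28, shown above without a run, had changes of -0.50 (SE 0.11, adjusted p = 0.0452) and -0.51 (SE 0.11, adjusted p = 0.0424), while RPS24 and RPS23 with runs were among the least changed.

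Total RNA of the 40S proteins gave no call on DOX in shCTRL. With limma 0 of 33 members were called, 1 had an unadjusted p under 0.05, and 4.44% of all genes were called. The changes ran from -0.25 for RPS26 to 0.11 for RPS3A, with a median of 0.00. The log2 translation efficiency (TE), the log2 RPF value minus the log2 total RNA value of the same lysate, therefore followed the RPFs. Its change had a median of -0.41, and 6 members were called lower, among them RPS9 (-0.72), RPS18 (-0.68), RPS25 (-0.67), RPS19 (-0.66) and RPS15 (-0.51), with adjusted p from 0.089 to 0.0976. Of all genes 0.388% were called for TE and 0.203% were called lower. Without the replicate block, and without replicate 2 or 3, limma called 0 members for TE. Without replicate 1 it called 21, where 5.73% of all genes were called.

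The knockdown lines showed lower RPFs of 40S proteins on DOX as well. Within the shEIF2B1 line, 31 of 34 members were called lower on DOX, with a median of -0.45, where 26.7% of all genes were called lower. Within the shEIF2B4 line 17 of 34 were called lower, with a median of -0.32, where 12% of genes were. The exceptions in shEIF2B1 were RPS15 (-0.08), RPS28 (-0.09) and RPS27L (0.19). For log2 TE, 24 of 33 members were called lower in the shEIF2B1 line (median -0.53, 9.07% of all genes lower) and 8 of 33 in the shEIF2B4 line (median -0.35, 2.8% of all genes lower). In these values the knockdown, the induced shRNA and DOX cannot be told apart. The weekly medians were -0.22, -0.34, -0.74 and -0.40 in shEIF2B1 and -0.04, -0.44, -0.28 and -0.52 in shEIF2B4.

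**Figure D1:**
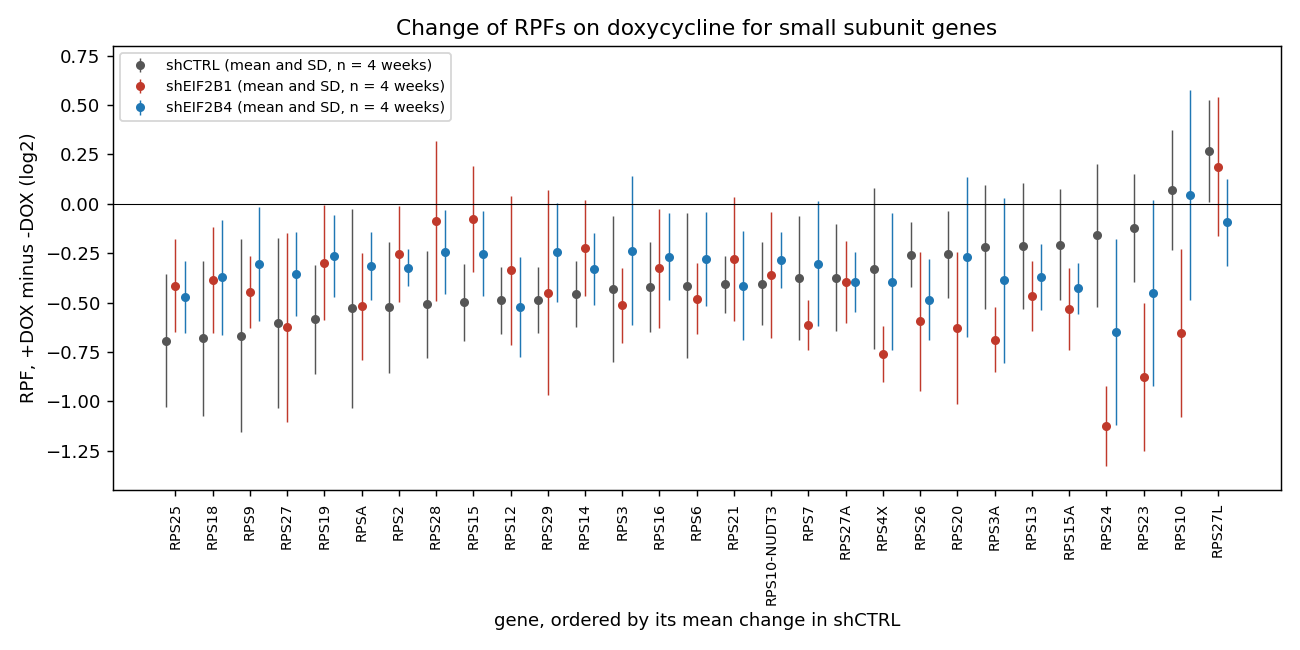
RPF change on DOX (log2, mean ± SD of the 4 weekly changes) of small subunit genes in shCTRL, shEIF2B1 and shEIF2B4 cells, ordered by the shCTRL mean. Most genes lie between -0.8 and 0 in all 3 lines, and RPS24 in shEIF2B1 lies lowest at -1.13.

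Once the shCTRL change was subtracted, the medians over the members lay near 0. The median RPF response was -0.01 to shEIF2B1, equal to the -0.01 of all genes, and 0.12 to shEIF2B4, where that of all genes was -0.02. For shEIF2B1 limma called 7 of 34 members, where 27.3% of all genes were called. RPS15 and RPS28 were higher, where 12% of all genes were called higher, and RPS24, RPS23, RPS10, RPS3A and RPS4X were lower, where 15.3% were called lower. The share of members called was thus no larger than the background. For shEIF2B4 0 of 34 were called, none had an unadjusted p under 0.05, and 2.75% of all genes were called. Without replicate 1, limma called 2 members for shEIF2B4 and 2 for shEIF2B1, where 14.5% and 14.0% of all genes were called. Without replicate 3 or 4 it called 4 or 3 for shEIF2B1, where 18.7% or 13.7% of all genes were called. Without the replicate block it called 0 members for shEIF2B1, none with an unadjusted p under 0.05, and 50 genes in all.

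RPS24 had the lowest RPF response to shEIF2B1 of all members. In the shEIF2B1 line its RPF values were 12.0045, 13.15, 12.04 and 13.31 in -DOX cells of weeks 1 to 4 and 10.95, 11.97, 10.67 and 12.41 in +DOX cells. In shCTRL they were 11.08, 12.10, 11.45 and 12.74 without DOX and 11.40, 11.55, 11.20 and 12.58 with DOX. The weeks differed by more than the conditions, so the -DOX and +DOX groups overlapped although every week fell in shEIF2B1. Without DOX the shEIF2B1 values lay above those of shCTRL in each week, and with DOX they lay below in most weeks. The part of this difference between the uninduced lines in the response was not tested. The change within the shEIF2B1 line was -1.13 (SE 0.10, limma adjusted p = 2.3e-09) and the response was -0.97 (SE 0.19, adjusted p = 0.00307). It was called without each replicate in turn, with responses from -0.83 to -1.08. Its total RNA did not follow, with values of 14.84, 14.81, 15.06 and 14.91 without DOX and 14.96, 15.05, 14.91 and 15.06 with DOX in shEIF2B1.

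In shEIF2B4 cells RPS24 RPFs were 10.73, 12.70, 12.84 and 13.31 without DOX and 10.75, 11.98, 11.76 and 12.49 with DOX. Week 1 was level and the other 3 weeks were lower with DOX. The change within this line was -0.65 (SE 0.15, adjusted p = 0.0092), the response was -0.49 (SE 0.33, adjusted p = 0.482), and the difference between both responses, -0.48 (SE 0.33, adjusted p = 0.756), did not pass the test.

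RPS23, which lies in the decoding centre, was the second of the members lower under shEIF2B1. Its RPF values in that line were 11.54, 12.19, 11.57 and 12.45 without DOX and 10.52, 11.61, 10.23 and 11.88 with DOX, lower in each week. In shCTRL they were 10.48, 11.67, 10.89 and 11.89 without and 10.72, 11.25, 10.71 and 11.77 with DOX. Without DOX the shEIF2B1 values were thus above those of shCTRL in each week, while with DOX the order varied by week. The part of this difference between the uninduced lines in the response was not tested. The response was -0.76 (SE 0.17, adjusted p = 0.00693), and it was called without each replicate in turn. In shEIF2B4, week 1 rose from 9.90 to 10.12 while the other weeks went from 11.89, 11.83 and 12.54 to 11.33, 11.20 and 11.68, and the response of -0.33 was not called. RPS24 lies at chr10:78033732-78056813 (+) and RPS23 at chr5:82273358-82278577 (-).

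RPS3A, a body protein next to the platform, had RPF values of 11.91, 12.75, 11.90 and 12.73 without DOX and 11.31, 12.07, 10.98 and 12.18 with DOX in shEIF2B1. Its response was -0.47 (SE 0.16, adjusted p = 0.0498). RPS4X, the X-linked form of a body protein, had 12.65, 13.19, 12.64 and 13.18 without DOX and 12.05, 12.36, 11.72 and 12.49 with DOX, and its response was -0.43 (SE 0.18, adjusted p = 0.0886). The RPS4X values of the shEIF2B1 line did not overlap between conditions. Neither was called without replicate 1, 3 or 4. Without DOX, both lay higher in shEIF2B1 than in shCTRL in each week. RPS10, with RPF values of 7.85, 7.71, 7.41 and 7.94 without and 6.90, 7.32, 6.34 and 7.75 with DOX, had a response of -0.73 (SE 0.22, adjusted p = 0.029) and was not called without replicate 1 or 3. Summed with its readthrough the response was 0.02 (SE 0.16, adjusted p = 0.937), near 0 for the coding sequence as a whole.

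RPS15 and RPS28, a pair of head proteins at the decoding site and at the mRNA exit, were the members called higher. RPS15 had RPFs of 13.20, 12.64, 13.15 and 12.69 without DOX and 13.46, 12.62, 12.77 and 12.52 with DOX in shEIF2B1, against 13.60, 13.12, 13.59 and 13.04 without and 13.35, 12.46, 12.94 and 12.60 with DOX in shCTRL. Without DOX, RPS15 was thus lower in shEIF2B1 than in shCTRL in each week, and with DOX the order varied by week. RPS15 fell in each week in shCTRL, while its weekly changes in shEIF2B1 were 0.27, -0.03, -0.38 and -0.17, with a mean of -0.08. RPS28 had RPFs of 11.21, 10.52, 11.46 and 10.77 without and 11.52, 10.67, 10.86 and 10.55 with DOX in shEIF2B1, and 11.56, 11.05, 11.76 and 11.17 without and 11.32, 10.30, 11.03 and 10.86 with DOX in shCTRL. It too was lower in shEIF2B1 than in shCTRL without DOX in each week, and fell in each week in shCTRL. Its weekly changes in shEIF2B1 were 0.31, 0.16, -0.59 and -0.22, with a mean of -0.09. Their responses were 0.42 (SE 0.15, adjusted p = 0.051) and 0.42 (SE 0.18, adjusted p = 0.0957). Neither was called without replicate 1, 2 or 4. A call of higher for them describes a smaller mean decrease from a lower uninduced level, with weeks in both directions in shEIF2B1. The part of this difference between the uninduced lines in the responses was not tested.

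Other 40S proteins with known regulatory roles did not pass the test after the shCTRL change was subtracted. RPS6, the S6 kinase substrate, had a response of -0.07 (SE 0.16, adjusted p = 0.81) to shEIF2B1, with a change of -0.41 (SE 0.13, adjusted p = 0.0954) in shCTRL and -0.48 (SE 0.10, adjusted p = 0.000426) within the shEIF2B1 line. Of the proteins ubiquitylated on stalled 40S subunits, RPS20 had a response of -0.37 (SE 0.17, adjusted p = 0.135), RPS3 of -0.08 (SE 0.17, adjusted p = 0.77) and RPS2 of 0.27 (SE 0.17, adjusted p = 0.269). For shEIF2B4 the highest RPF responses were those of RPS9 (0.36, SE 0.21, adjusted p = 0.41) and RPS19 (0.32), and the lowest those of RPS24 and RPS27L (-0.36, SE 0.17, adjusted p = 0.32).

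RPS27 and RPS27L, which encode paralogous forms of the same 40S protein, differed in level and in their changes. Their RPF values in shCTRL were 10.83, 10.95, 11.41 and 11.04 without and 10.74, 10.12, 10.34 and 10.62 with DOX for RPS27, lower in each week. RPS27L was called in no line. In shEIF2B1, RPS27 changed by -0.63 (SE 0.12, adjusted p = 0.000228) and RPS27L by 0.19 (SE 0.12, adjusted p = 0.227); in shEIF2B4, RPS27 changed by -0.35 (SE 0.11, adjusted p = 0.0459) and RPS27L by -0.09 (SE 0.12, adjusted p = 0.643). The responses to shEIF2B1 were -0.02 and -0.08, and neither was called.

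Total RNA of the members was not called in response to either knockdown. For shEIF2B1 limma called 0 of 33, with 1 at an unadjusted p under 0.05 and 3.47% of all genes called, and the median response was 0.04. For shEIF2B4 it called 0 of 33, again with 1 at an unadjusted p under 0.05, while 5.4% of all genes were called, and the median was -0.00. The responses to shEIF2B1 included -0.40 (RPS26) and -0.08 (RPS7) at the low end and 0.27 (RPS18) near the high end, and those to shEIF2B4 ran from -0.34 (RPS15, SE 0.11, adjusted p = 0.12) and -0.19 (RPS26) to 0.17 (RPS29) and 0.19 (RPS27L).

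RPS26, which lines the mRNA exit channel, stood apart in total RNA within the knockdown lines. Its total RNA values were 13.06, 13.01, 13.21 and 13.12 without and 12.56, 12.41, 12.18 and 12.63 with DOX in shEIF2B1, and 12.92, 13.09, 12.94 and 13.28 without and 12.63, 12.54, 12.73 and 12.55 with DOX in shEIF2B4. In both lines all 4 +DOX libraries lay below all 4 -DOX libraries. The changes were -0.66 (SE 0.12, adjusted p = 0.0012) and -0.44 (SE 0.10, adjusted p = 0.0049), in a comparison that called 34.4% of all genes in shEIF2B1 and 34.4% in shEIF2B4. In shCTRL the values were 12.86, 13.09, 13.19 and 13.08 without and 12.91, 12.82, 12.64 and 12.85 with DOX, a change of -0.25 (SE 0.09, adjusted p = 0.16), and the response to shEIF2B1 of -0.40 (SE 0.14, adjusted p = 0.17) was not called. RPFs of RPS26 changed alongside, by -0.60 (SE 0.11, adjusted p = 0.000143) and -0.49 (SE 0.12, adjusted p = 0.0136) in the knockdown lines, so that its log2 TE changed by 0.06 and -0.04. Other members called within a knockdown line included RPS4X (0.31), higher in shEIF2B1, and RPS15 (-0.33) and RPS28 (-0.20), lower in shEIF2B4.

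For log2 TE, 3 of 33 members were called in response to shEIF2B1, all lower, where 7.1% of all genes were called and 4.13% were called lower. RPS24 had a response of -1.02 (SE 0.22, adjusted p = 0.0315), RPS23 of -0.78 (SE 0.19, adjusted p = 0.0406) and RPS10 of -0.76 (SE 0.25, adjusted p = 0.0917). Summed with its readthrough, RPS10 had a TE response of -0.011 (SE 0.16, adjusted p = 0.973) and was not called. The highest were RPS15 (0.46) and RPS28 (0.34), and neither was called. Without replicate 1, 3 or 4, and without the replicate block, limma called 0 members and at most 0.397% of all genes. For shEIF2B4 it called 0 of 33, with 2 at an unadjusted p under 0.05 and 0.0923% of all genes called, and the extremes were RPS15 (0.59, SE 0.20, adjusted p = 0.19), RPS9 (0.42), RPS24 (-0.45) and RPS27L (-0.55, SE 0.20, adjusted p = 0.21).

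The direct test of whether the responses to both knockdowns differ called 0 members in any assay. In RPFs 1 member had an unadjusted p under 0.05 and 0.00897% of all genes were called, in total RNA 2 members and 0.1% of all genes, and in log2 TE 4 members and 0% of all genes. The largest difference in RPFs was that of RPS10 alone, -0.70 (SE 0.30, adjusted p = 0.746), and for its sum with the readthrough the difference was -0.09 (SE 0.15, adjusted p = 0.886). A response called for shEIF2B1 and not for shEIF2B4 was thus not shown to differ between them.

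Members differed among themselves at the third position of their codons. The share of codons ending in G or C (GC3) ran from 40.3% for RPS23 and 40.4% for RPS27L to 79.7% for RPS28 and 93.8% for RPS15, with a median of 56.5% over 32 members. RPS24, at 47.3%, and RPS3A, at 43.6%, lay in the lower part. Across these 32 genes, which share libraries and are not replicates, Pearson's r of GC3 with the RPF response was 0.61 for shEIF2B1 and 0.64 for shEIF2B4 (Spearman's rho 0.62 and 0.69). With the shCTRL change, which is subtracted in both, r was -0.54, and with the change within each knockdown line it was 0.40 and 0.23. Without RPS10, RPS10-NUDT3 and RPS27L, over 29 genes, r was 0.66 and 0.61 with the responses, -0.55 with the shCTRL change, and 0.62 and 0.46 within the knockdown lines. The 10 members lowest in GC3 had a median change of -0.24 in shCTRL and -0.50 within the shEIF2B1 line, and the 10 highest had -0.49 and -0.30.

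**Figure D2:**
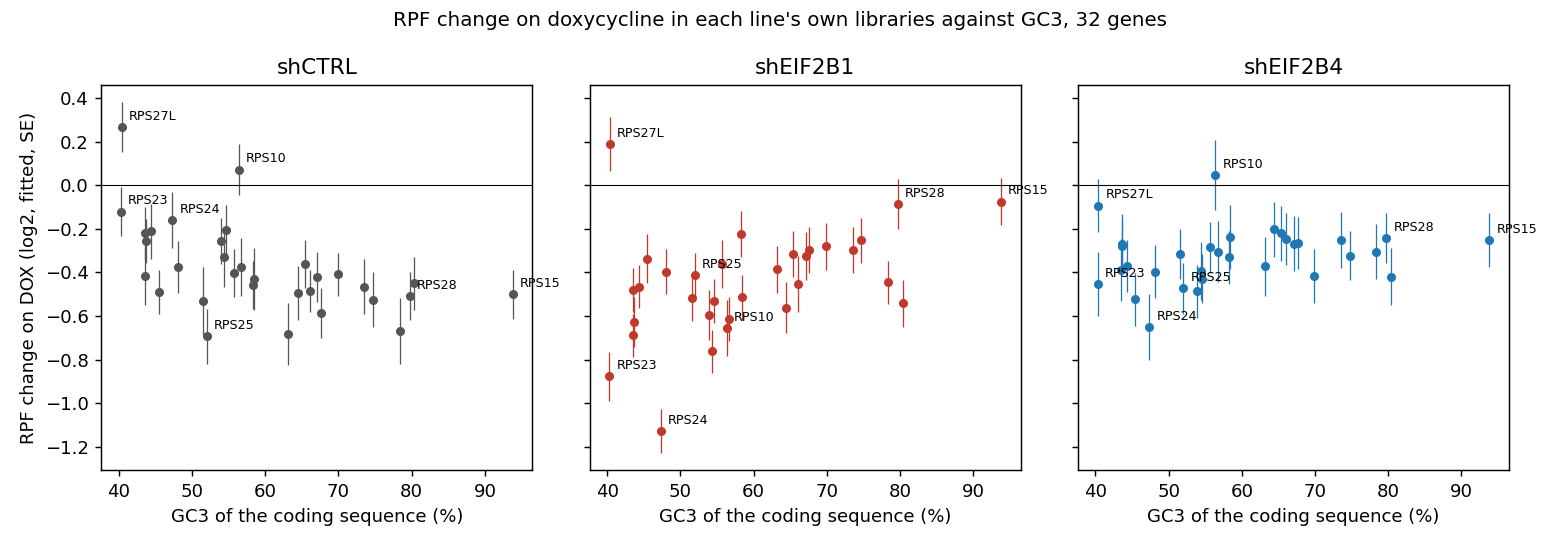
RPF change on DOX (log2, ± SE) within the libraries of each line against the share of codons ending in G or C, for 32 small subunit genes, with a panel for each line. The r across genes was -0.54 in shCTRL, 0.40 in shEIF2B1 and 0.23 in shEIF2B4, and -0.55, 0.62 and 0.46 without RPS10, RPS10-NUDT3 and RPS27L.

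GC3 also separated the libraries, both between the weeks of a group and between groups. For each RPF library the mean deviation of the 25% of all genes highest in GC3 minus that of the 25% lowest was taken. This GC3 contrast was 0.70, -0.01, 0.60 and -0.23 in weeks 1 to 4 of -DOX shCTRL cells, and was 0.54, 0.05, 0.36 and -0.45 in +DOX cells. In shEIF2B1 it was 0.16, -0.84, 0.08 and -0.78 without DOX and 0.65, -0.18, 0.37 and -0.49 with DOX. In shEIF2B4 it was 0.83, -0.48, -0.39 and -0.73 without DOX and 0.82, -0.15, 0.14 and -0.54 with DOX. Every shEIF2B1 +DOX library was thus above its -DOX partner, and on average the contrast moved from -0.35 to 0.09 in shEIF2B1, from -0.19 to 0.07 in shEIF2B4 and from 0.26 to 0.12 in shCTRL.

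RPF values of the members called in response to shEIF2B1 followed this contrast. Over the 24 libraries, which share weeks and lines, r with the contrast was -0.94 for RPS24, RPS23 and RPS3A, -0.85 for RPS4X and -0.74 for RPS10, and 0.80 for RPS15 and 0.75 for RPS28. RPS15A and RPS20, which were not called, had -0.90 and -0.88, and RPS25, the member lowest in shCTRL, had an r of -0.30. Week to week, RPFs of RPS24 had an SD of 0.86 among -DOX libraries of a line, the highest of all members, against a median of 0.21.

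When the straight-line trend of each library against GC3 was removed over all genes, a step added after the data were seen, 17 of 33 members were called lower in shCTRL, with a median of -0.41 and 2.54% of all genes called lower. Within the shEIF2B1 line 31 of 33 were called lower, where 25.4% of genes were, and 21 within the shEIF2B4 line, where 12.4% were. Of the 7 members called in response to shEIF2B1, 3 stayed called, RPS24 (-0.81, adjusted p = 0.015), RPS10 (-0.69, adjusted p = 0.0743) and RPS23 (-0.51, adjusted p = 0.0908), while RPS15 went to -0.03. Calls fell over the whole table as well: 10.8% of all genes were called and 6.01% were called lower, against 27.3% called without this step. The RPS10 value is again that of the gene alone: without this step its sum with the readthrough had a response of 0.02 (adjusted p = 0.937), and the sum was not refitted after it. Under both knockdowns, the paper describes a preference for codons ending in G or C in genes with raised rather than lowered RPFs. Removing the trend of each library also takes out any part of a knockdown response that follows GC3. The part of the GC3 contrast of the libraries in the responses of single members was not tested beyond this.

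Members moved together in RPFs more than in total RNA. Over the 24 libraries, which share weeks and lines, the r of a member with the median of the other members had a median of 0.74 in RPFs and 0.64 in total RNA. In RPFs RPS15 (0.26), RPS28 (0.30) and RPS27L (-0.13) were lowest, with RPS10 at 0.40. In total RNA RPS19 was highest at 0.84 and RPS26 (-0.03) and RPS27L (0.05) were lowest.

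The other ribosome and TOP genes gave values on the same scale. Of 51 large subunit genes 27 were called lower in RPFs on DOX in shCTRL, where 4.62% of all genes were, and all 51 lay below 0 (median -0.38). Of 19 other TOP mRNAs 7 were called lower, with the elongation factor EEF2 at -0.49 and the 40S protein RACK1 at -0.48, and EIF4A2 was higher (0.47). FAU, the remaining 40S protein, had -0.29 and was not called. The mitochondrial small subunit, whose mRNAs are not TOP mRNAs, had 7 of 27 called lower with a median of -0.11. In response to shEIF2B1, where 12% of all genes were called higher and 15.3% lower, 4 of the 51 large subunit genes were called higher and 7 lower (median -0.13, from -0.96 for RPL38 to 0.93 for RPL10L), 7 of the 19 other TOP mRNAs were called lower (median -0.25, NAP1L1 at -1.04), and 10 of the 27 mitochondrial genes were called lower (median -0.12). For shEIF2B4, limma called 0 genes of the 3 lists, where it called 2.75% of all genes, with 3, 0 and 4 at an unadjusted p under 0.05.

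Genes that build, signal to or mark the 40S subunit were read in the same way. Of 31 assembly factors 11 were called lower in their RPF response to shEIF2B1, where 15.3% of all genes were (median -0.24), with the cytoplasmic maturation kinase RIOK2 at -0.93 (adjusted p = 0.0091) and UTP20 at -0.82 (adjusted p = 0.034), and 3 were called lower on DOX in shCTRL, where 4.62% of all genes were. Of 16 genes of TOP and S6 signalling 8 were called higher and 2 lower for shEIF2B1 (median 0.24), where 12% and 15.3% of all genes were. The mTORC1 inhibitors SESN2 (1.19, adjusted p = 0.0013) and DDIT4 (0.94, adjusted p = 0.0038) rose, and RHEB, the activator of mTORC1, fell by 0.82 (adjusted p = 0.0064). SESN2 (1.46, adjusted p = 0.0012) and DDIT4 (1.18, adjusted p = 0.081) were also the 2 called for shEIF2B4, while in shCTRL RPS6KB1 alone was called, at -0.42 (adjusted p = 0.047). Of 13 genes of 40S ubiquitylation and rescue, the deubiquitylase USP21 was higher (0.45, adjusted p = 0.043) and G3BP1 (-0.74, adjusted p = 0.01) and G3BP2 (-0.43, adjusted p = 0.033), partners of the 40S deubiquitylase USP10, were lower for shEIF2B1, and 0 were called for shEIF2B4, with 0 at an unadjusted p under 0.05.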

How the data were processed

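Total RNA and RPFs were measured in 24 lysates of SW480 cells. Per the labels and methods, the authors trimmed reads (cutadapt 1.18), removed duplicates, quantified total RNA with RSEM and Bowtie2 on GENCODE 38 transcripts, aligned RPFs to the most abundant transcript of each gene (SAMtools 1.9), and deposited regularized log2 values made with DESeq2 (R 4.3.1), separately for RPFs and total RNA. Counts were not used here and depth is unknown, so the 4 replicates alone set the precision.

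Differences were fitted with limma 3.58.1 (R 4.3.3; lmFit, eBayes with trend) over all genes, with the replicate (week) as a block, on 16 libraries for a response, 8 within a line and 24 for the difference. The labels place replicates in separate weeks, and deviations of same-numbered samples correlated above 0.1 in 52 of 60 RPF pairs and 37 of 60 total RNA pairs. On simulated RPF data over 11145 genes, with 100 changed by each size and independent noise for each gene, a response to shEIF2B1 of 0.5 was recovered for 23% and of 1 for 92%. Members and lists were chosen with earlier results of these data known. Named members are the 2 highest and 2 lowest responses in each assay and knockdown, members called for TE, RPS27 with RPS27L, and RPS6, RPS10, RPS20, RPS3 and RPS2; others were named after their values were seen, and values of some members are not reported here. Coding sequences were taken from GENCODE 29, in which the transcript of RPS27 was not matched. Starts are from RefSeq, without member entries on chromosome 8. Alternatives were no block, leaving out each replicate, centring, leaving out low genes, all 24 libraries, no shCTRL correction and a threshold of 0.05; the sum of RPS10 with its readthrough and the removal of GC3 trends were added after seeing the data. Figures were drawn with matplotlib 3.10.9.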

Additional observations from a re-analysis of the deposited data

Results flagged for a closer look

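Of 102 sets of 4 libraries of named members, 6 held a library far from the other 3, and chance alone gives about 1 in 20. In RPFs of -DOX shEIF2B4 cells, replicate 1 stood apart for RPS15 (13.76, the others 12.68 to 12.84), RPS2 (12.98, the others 12.25 to 12.35) and RPS3 (13.59, the others 14.05 to 14.14). In +DOX shEIF2B4 cells it stood apart for RPS10 (6.96, the others 7.35 to 7.42) and RPS27L (6.31, the others 7.10 to 7.19). In -DOX shEIF2B1 cells replicate 4 stood apart for RPS27L (7.28, the others 7.03 to 7.06). The GC3 contrast of the shEIF2B4 libraries of replicate 1 was 0.83 without and 0.82 with DOX, above the other 6 of that line. Its part in these values was not tested.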

How the results depend on the processing

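Depth is unknown, and on simulated data responses of 0.5 were recovered for 21% to 23% of genes in RPFs, 14% to 18% in TE and 67% to 68% in total RNA, so small RPF and TE responses may have been missed. The simulation changed 100 genes by each size and drew noise independently for each gene. In the data 27.3% of genes were called for RPFs under shEIF2B1, so the recovered shares need not hold for the real fits. Without the replicate block, the members called fell from 7 to 0 for RPFs under shEIF2B1, from 22 to 0 for RPFs in shCTRL, from 3 to 0 for TE under shEIF2B1 and from 6 to 0 for TE in shCTRL. Over all genes the share called fell to 0.449% for RPFs under shEIF2B1 and to 0% for the others. Leaving out each replicate in turn gave 2 to 8 members for RPFs under shEIF2B1, 0 to 2 under shEIF2B4 and 0 to 33 in shCTRL, 0 to 1 for total RNA under shEIF2B4 and in shCTRL, and 0 to 7, 0 to 3 and 0 to 21 for TE. The shares of all genes called moved too, in RPFs from 13.7% to 24.4%, 0.386% to 14.5% and 0.0269% to 31.6%. In total RNA they were 1.82% to 4.15% under shEIF2B4 and 0.0251% to 20.5% in shCTRL. In TE they were 0% to 12.6%, 0% to 13.1% and 0% to 5.73%. With all 24 libraries in a single fit, shEIF2B1 gave 1 member for RPFs and 0 for TE, where 17.0% and 0.406% of all genes were called. A threshold of 0.05 gave 4 for RPFs under shEIF2B1, 11 for RPFs in shCTRL and 0 for TE in shCTRL, and the all-gene shares at 0.05 are not given here. Leaving out the lowest 25% of genes gave 10 for TE in shCTRL, where 1.29% of the genes kept were called. With GC3 trends removed, 3 were called for RPFs under shEIF2B1 and 0 for TE in shCTRL, where 10.8% and 0.0191% of all genes were called. Without the shCTRL correction, 31 and 17 members were called for RPFs under shEIF2B1 and shEIF2B4, 3 and 3 for total RNA, and 24 and 8 for TE. Of all genes 49.4% and 23.8% were then called for RPFs, 34.4% and 34.4% for total RNA, and 17.1% and 6.21% for TE. The causes were not tested.

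Without the shCTRL correction, directions turned under shEIF2B1 for RPFs of RPS28 (-0.0868), RPS15 (-0.0752), RPS2 (-0.25) and RPS27L (0.19) and TE of RPS28 (-0.0517) and RPS15 (-0.0468), and under shEIF2B4 for RPFs of RPS19 (-0.26), RPS9 (-0.30), RPS27 (-0.35), RPS6 (-0.28), RPS10 (0.0458), RPS3 (-0.24) and RPS2 (-0.32), total RNA of RPS29 (-0.000374) and TE of RPS9 (-0.30). Centring turned RPFs of RPS27 under shEIF2B1 (0.0299) and of RPS20 under shEIF2B4 (0.00898). Leaving out each replicate in turn turned RPFs under shEIF2B1 for RPS27 (-0.225 to 0.13), RPS27L (-0.213 to 0.0929), RPS6 (-0.129 to 0.0149) and RPS3 (-0.268 to 0.0514), RPFs under shEIF2B4 for RPS10 (-0.136 to 0.0793) and RPS20 (-0.117 to 0.121), total RNA of RPS29 under shEIF2B4 (-0.0622 to 0.267) and RPFs of RPS10 in shCTRL (-0.052 to 0.163). With GC3 trends removed, RPFs of RPS15 (-0.0295), RPS27L (0.17) and RPS6 (0.14) turned under shEIF2B1 and of RPS20 (0.13) under shEIF2B4. Summed with its readthrough, RPS10 turned to 0.0219 under shEIF2B1 and 0.11 under shEIF2B4.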
